A study of Mus musculus with 6 samples.

Results

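The transcripts of 10 genes of the YAP and TAZ pathway were compared between T1 and T2 cells, a pair of tumor cell populations of the same mouse mammary carcinoma. The genes were chosen by symbol as the coactivators Yap1 and Wwtr1, their DNA-binding partner Tead1, the kinase Lats2, the scaffold proteins Amotl2 and Ajuba, and the target genes Ctgf, Cyr61, Ankrd1 and Axl. All 10 were found among the 24129 gene names measured. Ctgf and Cyr61 carry the names Ccn2 and Ccn1 in current annotations.

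Both populations descend from 4T1GFP, which is the 4T1 mammary carcinoma line of BALB/c mice tagged with GFP and grown as a tumor in BALB/c mice, and neither received a treatment. T1 cells (labelled 4T1A, low GFP) were adherent, with an epithelial morphology, a high proliferation rate and an aggressive phenotype in vivo, and T2 cells (labelled 4T1NA, high GFP) were round and loosely attached, with a low proliferation rate and less aggressive growth. Each population was a GFP-positive fraction recovered after tumor cells overgrew a culture of sorted fibroblasts, so each stands for 1 sorting of cells and not for several tumors. Poly(A) RNA of 3 replicates per population was sequenced. Both were cultured in the same medium with serum, but T2 cells were passaged like a suspension culture without trypsin, so the population, the passaging and the attachment of the cells cannot be told apart. The replicates are described as independent, and the study calls its replicates in general biological, but nothing says that these came from separate cultures, so p-values measure the spread between these samples, which may be technical.

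YAP and TAZ are paralogous coactivators without a DNA-binding domain of their own, and they act on genes mainly through TEAD transcription factors. The Hippo kinases MST1 and MST2 activate LATS1 and LATS2, which phosphorylate YAP and TAZ and keep them in the cytoplasm or direct them to degradation. Cell attachment, spreading, junctions and polarity proteins feed into this control, and in mammary tumors the pathway is known for its links to growth, stemness and metastasis. Transcript levels do not measure the phosphorylation or the location of the YAP and TAZ proteins.

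The libraries held 18133227 to 20839686 reads on genes in T1 cells and 18719791 to 20307207 in T2 cells. Values are normalized counts, which are reads per gene divided by 1 size factor per library, so that 1 read was worth 0.928 to 1.06. The fold changes below are T1 minus T2 on the log2(normalized count + 1) scale with their standard error (SE), from limma fitted to the 11514 genes whose mean reached 10, and a gene was called different at a Benjamini-Hochberg adjusted p-value under 0.01. A stricter count also required a log2 fold change above 2 in size. Of the 6 epithelial markers examined, Krt8 and Krt18 were abundant in both populations and Krt5 had no read. Epcam ranged from 2931 to 3502 normalized counts in T1 cells and from 30.7 to 37.2 in T2 cells, and Krt14, a basal keratin, from 3707 to 3845 and from 0 to 7.17. The 6 epithelial markers summed to 64001 to 69949 in T1 and 37480 to 43407 in T2 cells. The 9 fibroblast markers summed to 225 to 241 in T1 cells and 997 to 1297 in T2 cells, most of it Pdgfra, which ranged from 191 to 206 in T1 and from 996 to 1295 in T2 cells, with Col3a1, Pdgfrb, Lum and Thy1 at 0 in every library. The collagen genes of the list ran the other way, Col1a1 from 14.8 to 27.9 in T1 and from 0 to 0.979 in T2 cells, and Col1a2 from 4.23 to 11.7 in T1 cells and at 0 in T2 cells. The part of these cell type markers in the results below was not tested. None of the 8 endothelial markers reached the minimum mean, their highest value being 13.3, and the 8 leukocyte markers summed to 386 to 463 in T1 cells and 167 to 204 in T2 cells, mostly Cd14 and Cd68, with Tyrobp and Adgre1 at 0.

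TEAD factors bind the hexamer GGAATG, which reads CATTCC on the other strand, and sequences that hold it before the members' transcription starts are shown because the members include both TEAD partners and TEAD targets. The 250 bases before each start were taken from RefSeq on GRCm38.p6, on the strand of the gene, with the hexamer in capitals. RefSeq starts were at hand for 8 of the 10 genes, with 10 promoters in all, and not for Ctgf and Tead1. Wwtr1 has a further window, which overlaps an annotated exon by 34 bases and is not printed. For 4 genes, a window that holds the hexamer and has no base in an annotated exon is given whole. These are Cyr61 at chr3:145649986-145650235, Ajuba at chr14:54577662-54577911, Wwtr1 at chr3:57575911-57576160 and Axl at chr7:25788734-25788983, all on the minus strand.
Cyr61: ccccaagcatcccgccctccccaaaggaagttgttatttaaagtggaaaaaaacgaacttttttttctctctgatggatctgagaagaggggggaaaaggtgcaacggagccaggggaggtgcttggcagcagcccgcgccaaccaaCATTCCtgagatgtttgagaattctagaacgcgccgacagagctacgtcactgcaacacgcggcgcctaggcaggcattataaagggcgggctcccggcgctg
Ajuba: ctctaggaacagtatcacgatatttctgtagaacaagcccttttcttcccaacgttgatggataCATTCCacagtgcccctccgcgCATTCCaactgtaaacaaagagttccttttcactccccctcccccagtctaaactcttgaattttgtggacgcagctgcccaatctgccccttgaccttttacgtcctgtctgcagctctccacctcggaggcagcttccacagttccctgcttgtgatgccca
Wwtr1: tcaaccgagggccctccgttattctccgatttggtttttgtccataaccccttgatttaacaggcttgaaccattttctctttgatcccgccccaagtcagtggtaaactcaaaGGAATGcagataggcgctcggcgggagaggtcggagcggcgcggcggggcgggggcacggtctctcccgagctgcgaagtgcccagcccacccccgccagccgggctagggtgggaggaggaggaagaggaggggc
Axl: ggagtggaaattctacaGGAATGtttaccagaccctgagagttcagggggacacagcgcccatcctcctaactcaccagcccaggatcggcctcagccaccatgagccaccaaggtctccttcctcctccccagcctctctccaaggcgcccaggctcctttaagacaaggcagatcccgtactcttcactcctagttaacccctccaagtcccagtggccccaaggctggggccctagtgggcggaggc

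The windows of Yap1, Amotl2 and Ankrd1 overlap annotated exons by 17, 136 and all 250 bases. Both Ankrd1 hexamers thus lie before its RefSeq start but inside an annotated exon. For these genes only the 30 bases around each hexamer are given. They lie at chr9:8004720-8004749 on the minus strand for Yap1, at chr9:102717727-102717756 on the plus strand for Amotl2, and at chr19:36120037-36120066 and chr19:36119950-36119979 on the minus strand for Ankrd1.
Yap1: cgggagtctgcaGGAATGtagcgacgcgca
Amotl2: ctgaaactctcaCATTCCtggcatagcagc
Ankrd1, distal: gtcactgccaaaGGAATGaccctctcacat
Ankrd1, proximal: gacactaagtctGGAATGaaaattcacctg

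The hexamer was found, on either strand, before a start of 7 of the 8 genes, Lats2 being the one without it. Counted by promoter, it was in 8 of 10, with the same site in both Wwtr1 windows. Ajuba and Ankrd1 held 2 copies each. Over the 32851 mouse promoters of the same length, counted by promoter and not by gene, 12.6% held the hexamer and 1.02% held 2 or more. The first base of the match was 103 bases before the start in Cyr61, 186 and 164 in Ajuba, 136 in Wwtr1, 233 in Axl, 141 in Yap1, 65 in Amotl2, and 210 and 123 in Ankrd1. The hexamer thus stood before genes that were higher in T1 cells and before genes that were higher in T2 cells. The AP-1 motif TGANTCA, searched on both strands as the site of a factor that often acts beside TEAD, and on its own so that its matches could overlap those of the hexamer, was found before none of the 8 genes and in 6.75% of all promoters. Of 16 further target genes of YAP and TAZ, 10 had a promoter sequence, 2 of these held the TEAD hexamer and 1 held the AP-1 motif. These matches are descriptions of letters in a window and not of bound sites.

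**Figure D1:**
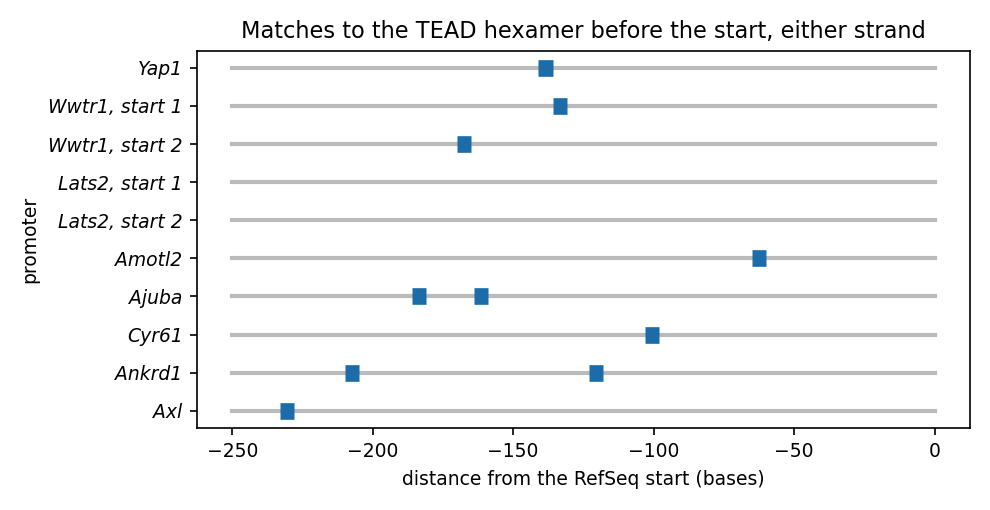
Position of each GGAATG or CATTCC match (blue block) in the 250 bases before the RefSeq starts of 8 member genes, as distance from the start in bases, 1 grey line per promoter. Lats2 has no match at either of its 2 starts, and Ajuba and Ankrd1 have 2 matches each.

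Of the 10 members, 6 were higher in T1 cells (Tead1, Amotl2, Ajuba, Ctgf, Cyr61 and Ankrd1), 3 were lower (Yap1, Wwtr1 and Axl) and Lats2 did not pass the test. Differences were common between these populations: 49.5% of all genes tested were called, 25.1% as higher and 24.4% as lower in T1 cells. The 9 calls among 10 members are to be read against that share. Past both thresholds, Ctgf and Ajuba were higher and Wwtr1 was lower in T1 cells, where 4.17% of all genes were higher and 4.2% lower. For 9 members, all but Lats2, no T1 value lay among the T2 values, which was also the case for 68.1% of all genes. The median log2 fold change of the members was 0.59, beside -0.0055 over all genes tested, and the median size was 1.15 beside 0.45. The members were chosen with earlier results of these data known, so these counts and medians are no independent test of the pathway.

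**Figure D2:**
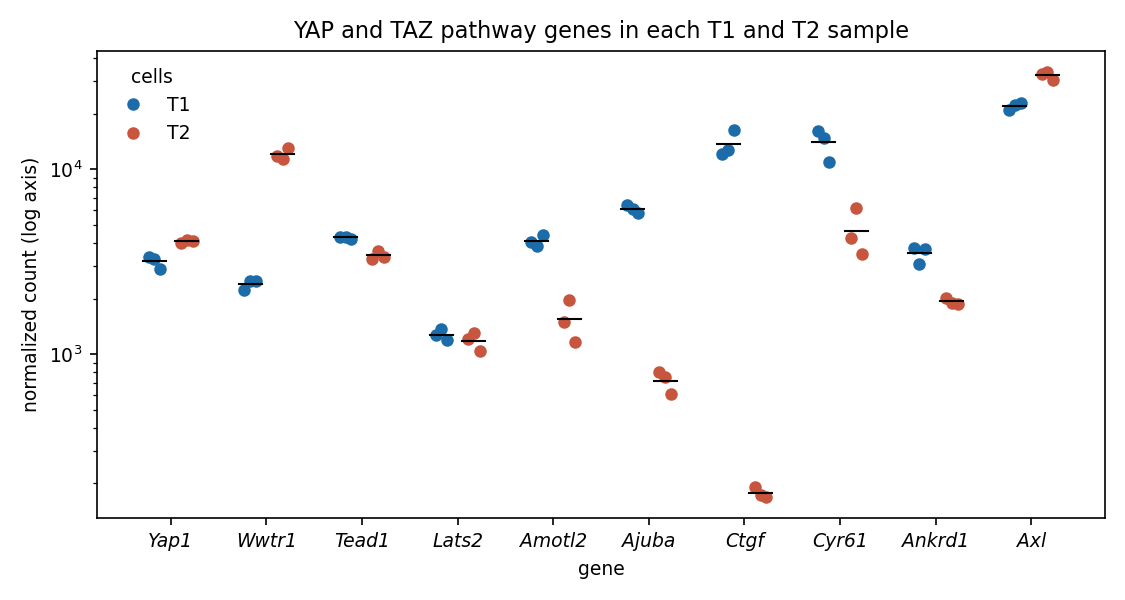
Normalized counts of the 10 members on a log axis in each of the 3 T1 (blue) and 3 T2 (red) samples, with a black line at each mean. The T1 and T2 points of Ctgf, Ajuba and Wwtr1 are the farthest apart, and those of Lats2 overlap.

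The coactivators were both lower in T1 cells, by very different amounts. Wwtr1, which encodes TAZ (chr3:57455649-57575910, minus strand), was measured at 2222, 2491 and 2479 normalized counts in T1 replicates 1 to 3 and at 11868, 11337 and 13004 in T2 replicates 1 to 3. Every T2 library was thus far above every T1 library, and the spread within each population was small beside the gap. The means were 2397 ± 152 in T1 and 12070 ± 851 in T2 cells (SD, n = 3), a level 5.03-fold higher in T2 cells. Its log2 fold change was -2.33 (SE 0.081, limma adjusted p = 8.11e-09), which ranked 385 from the lowest of the 11514 genes.

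Yap1, which encodes YAP (chr9:7931999-8004596, minus strand), was at 3376, 3294 and 2893 in T1 cells and at 3998, 4146 and 4122 in T2 cells. The T2 values lay close together and above all T1 values. The means were 3188 ± 259 and 4088 ± 79.2 (SD, n = 3), 1.28-fold higher in T2 cells, with a log2 fold change of -0.36 (SE 0.079, limma adjusted p = 0.00244). Without T2 replicate 3 the call was lost, at a log2 fold change of -0.36 and a limma adjusted p of 0.0103. Exons of Yap1 share 116 bases with those of the oppositely oriented Gm20416, and since the library kit does not mark strand, reads there cannot be told apart. In this bulk RNA, fewer cells that hold a transcript and less of it per cell cannot be told apart either, here and for every gene below.

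To compare the paralogs, counts were divided by exonic length in kilobases (kb). Per kb, Yap1 stood at 344 ± 27.9 in T1 and 442 ± 8.56 in T2 cells, and Wwtr1 at 502 ± 31.8 and 2526 ± 178 (SD, n = 3). Their summed level was therefore 846 ± 27.0 in T1 and 2967 ± 179 in T2 cells. Yap1 made up 44.0%, 40.6% and 37.6% of that sum in the T1 replicates and 14.8%, 15.9% and 14.1% in the T2 replicates. The share of Yap1 differed by 25.8 percentage points, with no overlap between populations (exact two-sided permutation p = 0.1, the smallest that 3 samples against 3 can give). In both populations Wwtr1 was the more abundant of the pair on this scale, but with the longest transcript as the length Yap1 held 54.1% of the sum in T1 and 23.2% in T2 cells, so which paralog leads in T1 cells depends on the length used.

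Tead1, the TEAD factor among the members (chr7:112679318-112906807, plus strand), went the other way from the coactivators. Its values were 4335, 4316 and 4209 in T1 cells and 3297, 3614 and 3369 in T2 cells. All T1 values were higher, but the step was small, with means of 4287 ± 68.2 and 3427 ± 166 (SD, n = 3), a 1.25-fold difference. The log2 fold change was 0.32 (SE 0.070, limma adjusted p = 0.00232). The call was lost without T1 replicate 1 (0.32), without T1 replicate 2 (0.32) and without T2 replicate 1 (0.30), at limma adjusted p-values of up to 0.0135.

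None of the other TEAD factors, which bind the same hexamer, passed the test. Tead2 had a log2 fold change of -0.12 (95% interval -0.30 to 0.07, limma adjusted p = 0.238), with overlapping values. Tead3 had 0.43 (0.10 to 0.76, limma adjusted p = 0.0264) and Tead4 -0.46 (-0.79 to -0.13, limma adjusted p = 0.0214). The summed level of the 4 TEAD genes per kb was 964 ± 24.6 in T1 and 987 ± 55.7 in T2 cells (SD, n = 3), a difference smaller than the SD of T2 (exact permutation p = 0.7). Within that sum the share of Tead1 was 32.8% ± 0.748 in T1 and 25.6% ± 0.887 in T2 cells, and the share of Tead4 was 18.5% ± 0.654 and 25.2% ± 4.84. The T1 and T2 values did not overlap for either share (exact permutation p = 0.1 each, the smallest possible), nor for Tead3, which held 7.46% and 5.36%. Tead2 was the most abundant of the 4 in every library, at 41.2% ± 1.19 and 43.9% ± 4.68 of the sum (exact permutation p = 0.4). Exact tests were run on 15 shares and summed levels in all, those of the LATS kinases and angiomotins included, and since none could go below 0.1, none could pass a threshold of 0.05.

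**Figure D3:**
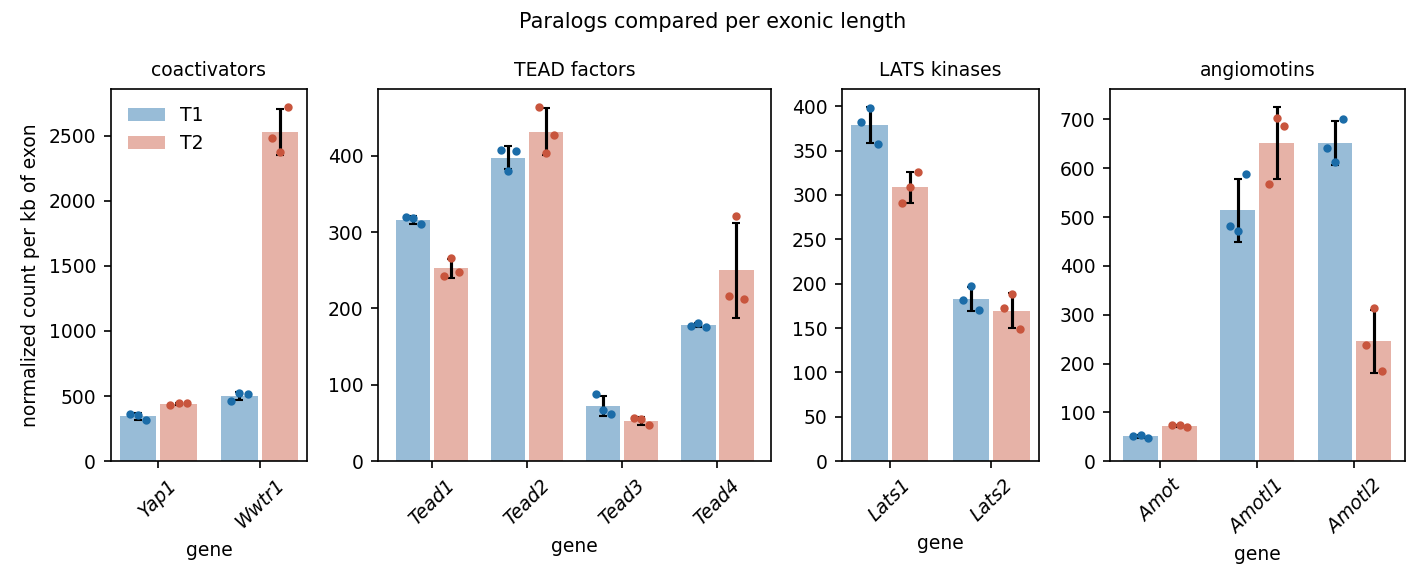
Normalized counts per kb of exon for the paralogs of the coactivators, TEAD factors, LATS kinases and angiomotins; bars are means of 3 samples starting at 0, error bars are SD, points are samples, T1 in blue and T2 in red. Each panel has its own scale. Wwtr1 stands at 2526 per kb in T2 against 502 in T1, and Amotl2 and Amotl1 change places as the most abundant angiomotin.

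Lats2, one of the 2 LATS kinases (chr14:57689662-57758388, minus strand), was the member that did not pass. Its values were 1267, 1377 and 1190 in T1 cells and 1203, 1312 and 1036 in T2 cells, so the populations overlapped. The log2 fold change was 0.11 with a 95% interval of -0.12 to 0.35 (limma adjusted p = 0.366). The interval holds both signs, and the test does not show that the levels were equal. In the annotation, 2955 exonic bases of Lats2 are shared on the same strand with the protein-coding gene model Gm49361, so its count is uncertain. Its paralog Lats1 had a log2 fold change of 0.30 (SE 0.079, limma adjusted p = 0.00796), a call that was lost on leaving out T1 replicate 1, T1 replicate 2, T2 replicate 1 or T2 replicate 2, with limma adjusted p-values of up to 0.0411. Lats2 made up 32.6% ± 0.528 of the summed LATS level per kb in T1 and 35.5% ± 3.63 in T2 cells.

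The genes of both scaffold proteins were higher in T1 cells. Amotl2, an angiomotin that binds YAP at junctions and is also a target of YAP (chr9:102716672-102733418, plus strand), was at 4031, 3860 and 4411 in T1 cells and at 1490, 1978 and 1167 in T2 cells. The lowest T1 value was well above the highest T2 value, but the T2 libraries were widely spread, with a coefficient of variation of 26.4%. The means were 4100 ± 282 and 1545 ± 408 (SD, n = 3), a 2.65-fold difference and a log2 fold change of 1.44 (SE 0.16, limma adjusted p = 2.4e-05). The other angiomotins had the opposite sign, Amot at -0.50 (SE 0.10, limma adjusted p = 0.00149) and Amotl1 at -0.34 (95% interval -0.59 to -0.10, limma adjusted p = 0.0185). Amotl1 did not pass with all samples, and passed without T1 replicate 3 (-0.44, limma adjusted p = 0.00286) and without T2 replicate 1. Per kb, Amotl2 made up 53.6% ± 1.07 of the angiomotin sum in T1 and 25.2% ± 4.84 in T2 cells, while Amotl1 made up 42.1% ± 1.61 and 67.3% ± 4.81. The most abundant angiomotin was thus Amotl2 in each T1 library and Amotl1 in each T2 library.

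Ajuba, a LIM domain protein that binds LATS kinases and restrains them (chr14:54567472-54577558, minus strand), was at 6383, 6135 and 5839 in T1 cells and at 798, 757 and 609 in T2 cells. The gap between the populations was many times the spread within either of them. The means were 6119 ± 272 and 721 ± 99.5 (SD, n = 3), 8.49-fold apart, with a log2 fold change of 3.09 (SE 0.10, limma adjusted p = 7.07e-09). Its relative Limd1 went the other way, at -0.35 (SE 0.085, limma adjusted p = 0.00466), a call that was lost without T1 replicate 2, T2 replicate 2 or T2 replicate 3. It is named here after its value was seen. Wtip, the remaining gene of that family, had no read.

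The 4 target genes differed in direction and, far more, in size. Ctgf, which encodes the matricellular protein CCN2 and is a widely used readout of YAP and TAZ (chr10:24595442-24598683, plus strand), was at 12145, 12700 and 16336 in T1 cells. In T2 cells it was at 191, 173 and 170. The T2 values lay close together, and T1 replicate 3 stood above the other T1 replicates. The means were 13727 ± 2277 and 178 ± 11.4 (SD, n = 3), a 77.2-fold difference. The log2 fold change of 6.25 (SE 0.12, limma adjusted p = 2.34e-10) ranked 57 from the highest of the 11514 genes. Exons of Ctgf share 665 bases with the oppositely oriented Gm15270, whose reads cannot be told apart there.

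Cyr61, which encodes the related protein CCN1 (chr3:145646976-145649981, minus strand), was at 16122, 14885 and 11039 in T1 cells and at 4271, 6172 and 3481 in T2 cells. It remained an abundant transcript in T2 cells, with the widest spread of the members there, a coefficient of variation of 29.8%. The means were 14015 ± 2651 and 4642 ± 1383 (SD, n = 3), a 3.02-fold difference and a log2 fold change of 1.62 (SE 0.19, limma adjusted p = 4.65e-05). Both members of the CCN family were thus higher in T1 cells, Ctgf by 77.2-fold and Cyr61 by 3.02-fold, and the replicate with the highest T1 value was 3 for Ctgf and 1 for Cyr61.

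Ankrd1, an ankyrin repeat protein that responds to mechanical load and is another common YAP readout (chr19:36111961-36120099, minus strand), was at 3762, 3097 and 3730 in T1 cells and at 2011, 1902 and 1877 in T2 cells. The populations did not overlap, with means of 3530 ± 375 and 1930 ± 71.3 (SD, n = 3). The difference was 1.83-fold, with a log2 fold change of 0.87 (SE 0.091, limma adjusted p = 1.73e-05).

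Axl, a receptor tyrosine kinase for GAS6 linked to invasion and listed among YAP targets (chr7:25757273-25788705, minus strand), was the target with the opposite direction. It was at 20904, 22330 and 22796 in T1 cells and at 32966, 33681 and 30447 in T2 cells. All T2 values were above all T1 values, with means of 22010 ± 986 and 32365 ± 1699 (SD, n = 3), 1.47-fold higher in T2 cells. The log2 fold change was -0.56 (SE 0.075, limma adjusted p = 0.000105).

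Per kb of exon, the members covered a wide range of levels, given here as percentiles among the 11387 genes with a length. Cyr61 and Axl were among the most abundant transcripts of both populations, Cyr61 at percentile 99.4 in T1 and 97.4 in T2 cells and Axl at 98.8 and 99.4. Ctgf stood beside them in T1 cells, at percentile 99.0, and at 30.0 in T2 cells. Ajuba went from 95.5 in T1 to 58.2 in T2 cells, and Wwtr1 from 80.8 to 97.7. In T1 cells the order from the highest was Cyr61, Ctgf, Axl, Ajuba, Ankrd1, Amotl2, Wwtr1, Yap1, Tead1 and Lats2, with overlapping values between the neighbours Cyr61 and Ctgf, Ctgf and Axl, and Yap1 and Tead1. With the longest transcript as the length, Yap1 stood above Wwtr1 in T1 cells. In T2 cells the order per kb of exon was Axl, Wwtr1, Cyr61, Ankrd1, Yap1, Tead1, Amotl2, Ajuba, Lats2 and Ctgf. There the values overlapped between Wwtr1 and Cyr61, Tead1 and Amotl2, Amotl2 and Ajuba, and Ajuba and Lats2. On the scale of the longest transcript, Amotl2 stood above Tead1 and Lats2 above Ajuba in T2 cells. The lowest member in T2 cells was thus the second highest in T1 cells.

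The 56 other genes of the pathway, in 4 lists by role, included 46 that were compared. In T1 cells 19 of these (41.3%) were higher and 11 (23.9%) were lower, beside 25.1% and 24.4% of all genes tested. The counts of each list below are to be read against the same shares. The median log2 fold change of the 46 genes was 0.088. Ptpn14 stands in 2 of the lists and counts under both. Past both thresholds, 8 of them were higher and 0 lower. Of these 8, 6 were among the 12 target genes compared. Over all genes tested, 4.17% were higher and 4.2% lower past both thresholds. A difference between the lists was not tested. The lists, like the members, were chosen with earlier results of these data known.

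**Figure D4:**
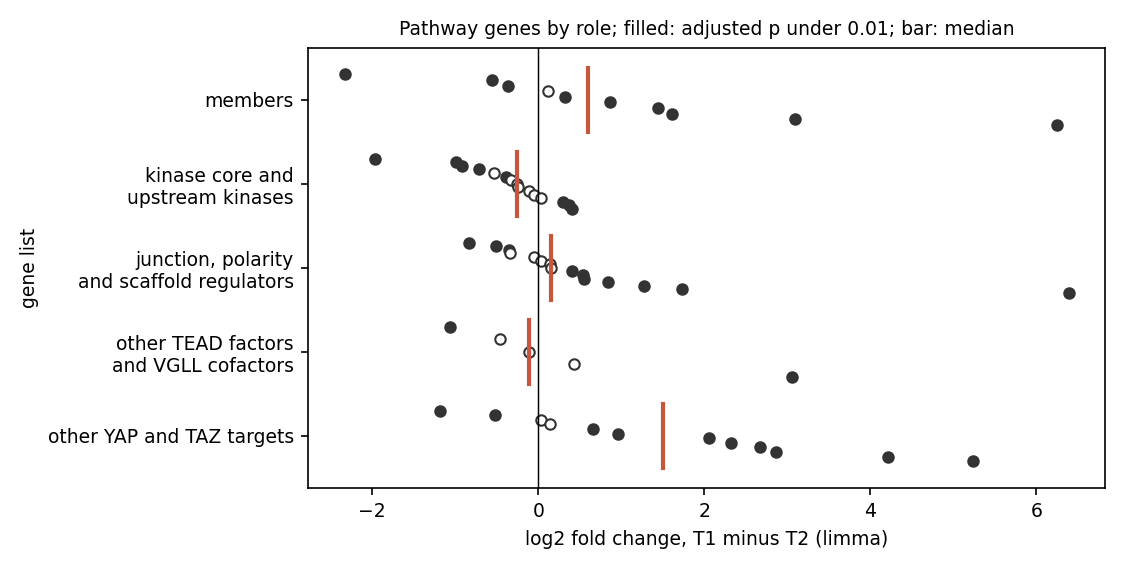
Log2 fold change, T1 minus T2, of each compared gene of the members and of 4 lists of other pathway genes, 1 point per gene, filled where the limma adjusted p was under 0.01, with a red bar at the median of each list. The median is 1.51 for the other targets and -0.26 for the kinases.

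Of 16 genes of the kinase core and the kinases upstream of it, 15 were compared, 3 were higher in T1 cells, 5 were lower and 7 did not pass, with a median of -0.26. None passed the size threshold. Map4k1, a kinase that can act on LATS beside MST1 and MST2, had the largest change of the list at -1.96 (SE 0.25, limma adjusted p = 7.19e-05), with means of 138 in T2 and 35.2 in T1 cells, and it passed the size threshold without T1 replicate 3, at -2.15, and without T2 replicate 2. Sav1, the scaffold of the MST kinases, was 1.99-fold higher in T2 cells at -0.99 (SE 0.081, limma adjusted p = 2.99e-06), and Map4k2 was at -0.91 (SE 0.10, limma adjusted p = 2.48e-05). Stk4, which encodes MST1, was higher in T1 cells at 0.41 (SE 0.077, limma adjusted p = 0.000928). Stk3, which encodes MST2, did not pass (-0.11, 95% interval -0.34 to 0.12), nor did the LATS cofactors Mob1a (-0.05, -0.29 to 0.19) and Mob1b (0.04, -0.25 to 0.32). Exons of Sav1 share 1336 bases with a gene on the other strand, so reads there cannot be told apart. The same holds for 995 exonic bases of Wwc2 and 337 of Gadd45a, both given below. Some other named genes share shorter stretches with other genes.

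Of 18 junction, polarity and scaffold regulators, 15 were compared, 7 were higher in T1 cells, 3 were lower and 5 did not pass, with a median of 0.15. Crb3, an epithelial apical polarity protein, passed both thresholds. It had 399 reads in the 3 T1 libraries and 2 in the 3 T2 libraries, a ratio of 202 with a 95% counting interval of 55.4 to 1670, which covers counting error only. Wwc1, which encodes KIBRA, an activator of the LATS kinases, was 3.32-fold higher in T1 cells at 1.73 (SE 0.13, limma adjusted p = 1.74e-06). Its paralog Wwc2 was at 1.28 (SE 0.080, limma adjusted p = 4.58e-07), and the phosphatase gene Ptpn21 was at 0.84 (SE 0.088, limma adjusted p = 1.74e-05). Nf2, which encodes the tumor suppressor Merlin, was 1.45-fold higher in T1 cells at 0.54 (SE 0.074, limma adjusted p = 0.000119). The 3 lower genes were Amot and Limd1, given above, and the polarity gene Dlg5 at -0.83 (SE 0.091, limma adjusted p = 2.35e-05), which was named after its value was seen. In these libraries the epithelial adhesion gene Cdh1 ranged from 13726 to 15461 in T1 and from 453 to 484 in T2 cells, and the part of that difference in the levels of these regulators was not tested.

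Of the 7 other TEAD and VGLL genes, 5 were compared and 2 passed. Vgll3, a cofactor that competes with YAP and TAZ for TEAD, was at 52.9, 86.5 and 65.4 in T1 cells and at 6.85, 8.19 and 6.50 in T2 cells. All T1 libraries were higher, at a log2 fold change of 3.06 (SE 0.29, limma adjusted p = 9.5e-06), from 210 reads in all T1 libraries and 22 in all T2 libraries. Vgll4, a TEAD cofactor that opposes YAP, had the other direction at -1.06 (SE 0.14, limma adjusted p = 8.15e-05) and was 2.07-fold higher in T2 cells. Vgll1 and Vgll2 had no read.

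Of the 16 other target genes, 12 were compared, 8 were higher in T1 cells, 2 were lower and 2 did not pass, with a median of 1.51. Together with Ctgf, Cyr61, Ankrd1 and Axl, and with Amotl2 and Lats2, which are both regulators and targets, they make a set of 22 target genes, of which 18 were compared. In T1 cells 12 of these were higher, 3 were lower and 3, among them Lats2, did not pass. Tgfb2, a TGF-beta ligand, was 20.1-fold higher in T1 cells at 4.21 (SE 0.23, limma adjusted p = 1.94e-07). That ratio rests on few T2 reads, 9, 8 and 13 per library, beside 169, 218 and 209 in T1 cells. Nuak2, a kinase, was at 2.86 (SE 0.20, limma adjusted p = 9.43e-07), and F3, which encodes tissue factor, was at 2.32 (SE 0.19, limma adjusted p = 2.93e-06). Fjx1 had 23, 49 and 45 reads in T1 cells and 0 in each T2 library, at least 12.9-fold higher against a floor of 3 reads per library. The named targets past both thresholds thus included secreted, surface and intracellular proteins.

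The size of some of these target differences depended on single replicates. Gadd45a, a stress response gene, was at 208, 179 and 561 in T1 cells and at 46.0, 52.2 and 31.5 in T2 cells. Its log2 fold change was 2.67 (SE 0.38, limma adjusted p = 0.000157). Without T1 replicate 3 it was smaller, at 2.16, and still passed both thresholds (limma adjusted p = 5.63e-05). Nt5e, which encodes CD73, was at 2509, 3009 and 4941 in T1 cells and at 495, 818 and 1281 in T2 cells. Its log2 fold change was 2.05 (SE 0.32, limma adjusted p = 0.000259) and fell under the size threshold without T1 replicate 3, at 1.77, and without T2 replicate 1, at 1.71. T1 replicate 3 was the highest T1 library for 13 of the 18 targets compared, where it was the highest for 41.4% of all genes tested. Among the members this held for Ctgf, Amotl2 and Axl.

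The other targets changed by less. Crim1 was 1.96-fold higher in T1 cells at 0.96 (SE 0.11, limma adjusted p = 2.56e-05) and Dock5 was at 0.66 (SE 0.13, limma adjusted p = 0.00135). Myof, a ferlin family membrane protein, was lower in T1 cells like Axl, at -1.19 (SE 0.082, limma adjusted p = 9.21e-07) and means of 10567 ± 1010 in T1 and 23960 ± 570 in T2 cells (SD, n = 3). Arhgef17 was the other gene of the list that was lower in T1 cells, at -0.52 (SE 0.092, limma adjusted p = 0.000586). Asap1 (0.14, 95% interval -0.01 to 0.29) and Ptpn14 (0.03, -0.17 to 0.23) did not pass. Arhgef17, Asap1 and Ptpn14 were named after their values were seen.

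**Figure D5:**
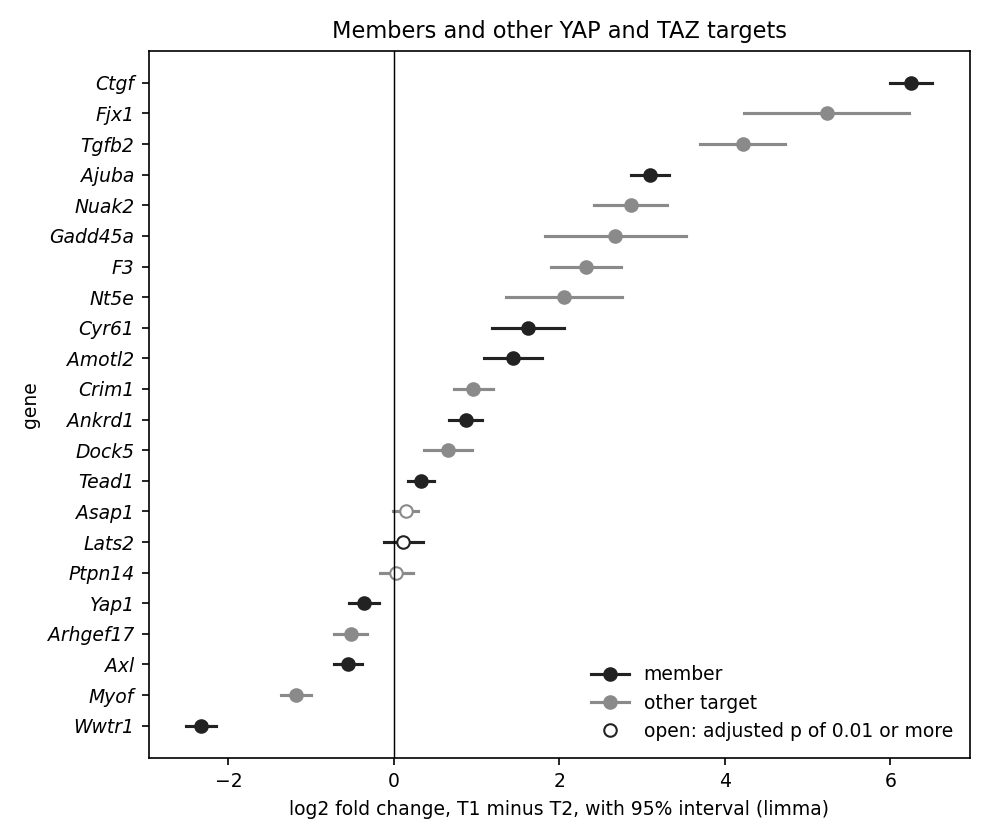
Log2 fold change, T1 minus T2, with its 95% interval from limma, for the 10 members (black) and the 12 compared other targets (grey), ordered by value; open points had an adjusted p of 0.01 or more. Ctgf is at the top at 6.25, Wwtr1 at the bottom at -2.33, and Axl, Myof and Arhgef17 are the targets left of 0. The value of Fjx1, which had no read in T2 cells, depends on the pseudocount and is no bound.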

How the data were processed

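RNA sequencing of 3 T1 and 3 T2 samples was used, with groups taken from the sample labels. The authors removed adapters with Trimmomatic, used TopHat2 for alignment to mm10, HTSeq for gene counts and DESeq2 for normalization; the versions, annotation and strand setting are not given in the sources used here. The deposited signal is thus a gene's reads scaled by the size factor of the library, and 100% of values were whole multiples of 1 read within a tolerance of 0.01 reads, so depth could be recovered. Values were compared with limma 3.58.1 in R 4.3.3 (variance trend, pseudocount 1, mean of at least 10), with Benjamini-Hochberg adjustment over all genes tested. The thresholds, an adjusted p under 0.01 and a log2 fold change above 2, are those of the study. Shares and summed levels of paralogs used exact permutation tests over samples and exonic lengths from GENCODE vM21. Intervals of fold changes are limma's, from the spread between samples. The interval of a read ratio (exact binomial, scipy 1.17.1) and the floor of 3 reads cover counting error only. The limma, edgeR and DESeq2 tests, and not the exact permutation tests, were tried on simulated counts. The members and lists were chosen with earlier results of these data known. Named genes were the members, genes of the lists past both thresholds, up to 3 further called genes per list, and near paralogs and partners. Alternatives covered the pseudocount, the filter, quantile normalization, the variance trend, edgeR 4.0.16 and DESeq2 1.42.0 on whole reads, the replicate block and each replicate left out. Gene names changed to dates in the table (27) were not used. Figures were drawn with matplotlib 3.10.9.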

Additional observations from a re-analysis of the deposited data

How the results depend on the processing

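The direction of the 9 members called different was kept under every alternative run, and so were the 3 past both thresholds. Without a filter on low values, which raised the number of genes tested from 11514 to 24129, 5 members were called in place of 9, 1 of them lower in T1 cells in place of 3, with 3512 genes in place of 5701 over all and 7 other pathway genes lower in place of 11. There the limma adjusted p was 0.0101 for Amotl2 (1.44), 0.0156 for Cyr61 (1.62), 0.0179 for Axl (-0.56) and 0.0204 for Yap1 (-0.36). Without the variance trend it was 0.0115 for Tead1 (0.32) and 0.0131 for Yap1 (-0.36), and the cause was not tested. Leaving out 1 replicate at a time gave 8 or 9 called members and log2 fold changes of 0.30 to 0.36 for Tead1 and -0.41 to -0.29 for Yap1. The share of Yap1 in the coactivator sum differed by 31.0 percentage points with the longest transcript as the length, in place of 25.8. With edgeR and with DESeq2 on the whole reads, 9 members were called.

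The replicate block gave 9 called members and 5780 genes, and changed no call of a member. Same-numbered samples had correlations of 0.057, 0.17 and 0.10 in their deviations, and differently numbered samples -0.15 to 0.072. Each T1 replicate correlated best with the T2 replicate of its number, but T2 replicate 1 correlated best with T1 replicate 3 (0.072). All these correlations were weak, and the numbers were not taken as a pairing in the main test. With 3 samples a group, small differences such as that of Lats2 could not be resolved, and each population is 1 sorted culture.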
